A study of Mus musculus with 20 samples.

Results

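The genes described here encode the protein subunits of the mitochondrial ribosome. They were taken as the protein-coding genes whose mouse symbol starts with Mrpl or Mrps followed by a digit, which gave 78 of the 53465 genes in the tables. Of these, 49 carry the large subunit prefix (Mrpl) and 29 the small subunit prefix (Mrps). All 78 passed the low-count filter, as did 15709 genes in all. The study sequenced RNA of muscle from wild-type (WT) mice in 4 groups of 5 libraries, namely females and males, each either trained or non-trained. All groups share the wild-type genotype, and they differ in sex and in training. The labels give no age, muscle name, training protocol, collection time or batch, and do not say in words that each library came from a separate animal, so the p-values speak only of the spread among these libraries. In bulk tissue, fewer cells of a type and less RNA per cell cannot be told apart.

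The mitochondrial ribosome makes the few proteins encoded by mitochondrial DNA, which are core subunits of the respiratory chain and ATP synthase. Its rRNAs are transcribed inside the organelle from mt-Rnr1 (small subunit) and mt-Rnr2 (large subunit), while its proteins are encoded in the nucleus, made in the cytosol and imported. The small subunit binds the mRNA and the large subunit joins the amino acids. Muscle fibres rich in mitochondria depend on this system for respiration. A few names do not follow the structure: the Mrps18a and Mrps30 products sit in the large subunit, and the Mrps36 product is now known as a component of the oxoglutarate dehydrogenase complex. Groups by prefix are used throughout unless structure is named.

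The libraries held 22043145 to 38483572 counts. Markers of skeletal muscle such as Acta1 were high in every library, with a summed level of the 6 markers of 54740 to 79650 CPM, the counts per library scaled by TMM. Libraries stood apart in 3 ways. Female non-trained library 1 had the fewest genes above 0, 18727, where the others had 19806 to 21449. Male non-trained library 4 had the highest summed erythroid markers, 3754 CPM, and male trained library 3 the highest summed macrophage markers, 672.5 CPM. Results are given with and without these 3 libraries where they change.

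Transcript levels of the 78 genes spanned 96.1-fold by mean deposited TPM (a scale that divides by transcript length), from 3.0 to 288. The subunits had similar middle levels, with a median of 38 TPM for the large and 37.5 TPM for the small subunit. Mrpl42 was highest at 288 ± 34.2 TPM (SD, n = 20), followed by Mrps21 at 206 ± 26.6, Mrpl30 at 179 ± 14.6, Mrpl51 at 134 ± 13.3 and Mrpl33 at 124 ± 13.6. The ranges of Mrpl42 (239 to 357 TPM) and Mrps21 (168 to 265) overlapped, as did those of Mrpl51 (116 to 165) and Mrpl33 (105 to 157). No other gene of the 78 reached a mean of 100 TPM. At the low end stood Mrpl23 at 3.0 TPM, Mrpl19 at 10.3, Mrpl39 at 10.6, Mrps30 at 11.1 and Mrps2 at 11.4, and the ranges of the last 4 overlapped.

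**Figure D1:**
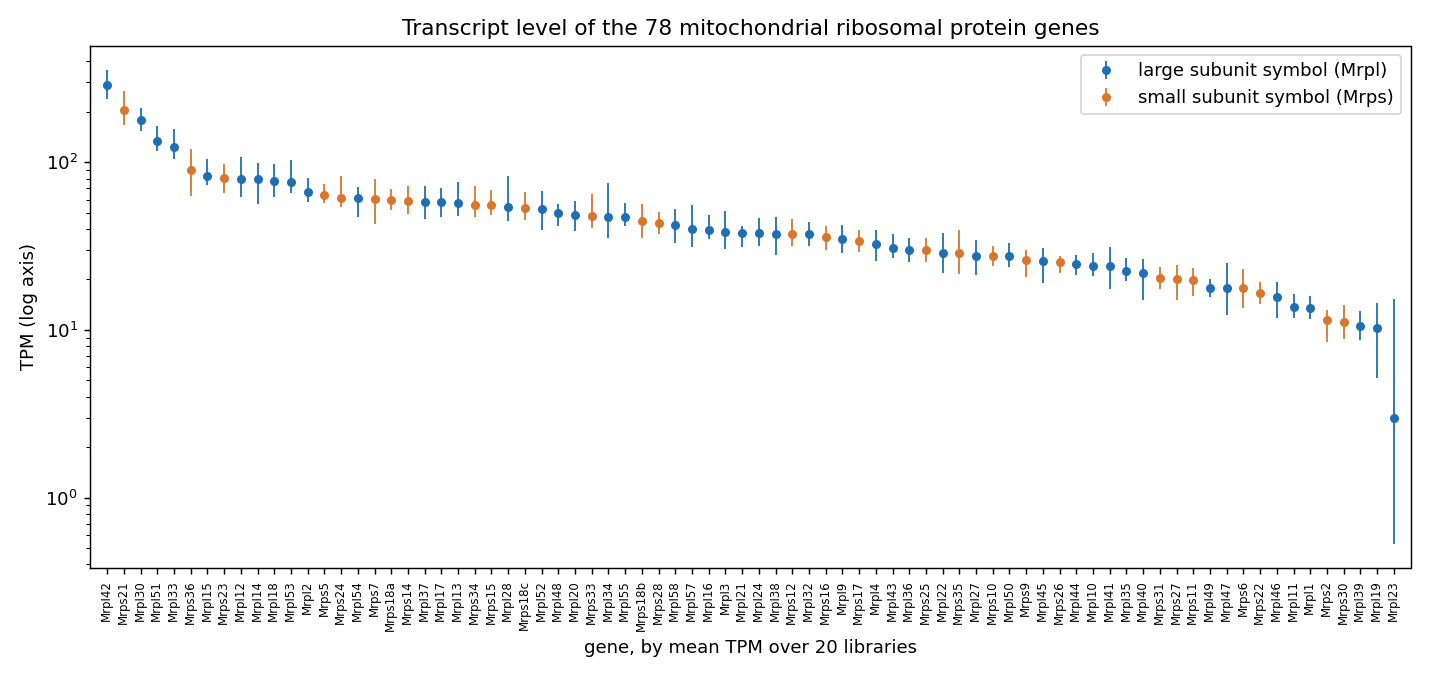
Mean deposited TPM of each of the 78 genes over 20 libraries on a log axis, with bars from the lowest to the highest library, blue for large and orange for small subunit symbols. The 5 highest genes lie at 100 TPM or more, and Mrpl23 stands below all others at 3.0 TPM with the widest range, 0.53 to 15.2.

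The value of Mrpl23 is uncertain. A processed pseudogene, Mrpl23-ps1, matches 540 bases of it at 100% identity and was given 1010.3 counts on average against 61.4 for Mrpl23. The share of their summed counts assigned to Mrpl23 ran from 2.58% to 19.0% over the libraries, while their summed level ran from 29.3 to 51.4 CPM. Among the other genes with near-identical copies, the copies held at most 0.663% of the member's counts, apart from Gm42688, which overlaps Mrpl53 on the same strand and held 5.19%.

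Within groups the genes moved together from library to library. After the group means were removed, the mean correlation of log2 CPM between pairs of members was 0.42 over 20 libraries, against 0.0015 between pairs of all genes tested. Pairs within the large subunit had 0.42, pairs within the small subunit 0.40 and mixed pairs 0.42. These are descriptions over points that share library depth, scaling and tissue composition. The mean log2 CPM of the members was highest in female trained library 2 (4.859) and female non-trained library 1 (4.843). The correlation was not computed without them. The gene closest to the mean of the others was Mrpl18 (0.94), whose product belongs to the large subunit's central protuberance, and the one furthest from it was Mrpl23 (-0.42). The typical spread within a group was small, with a median SD of 0.147 on the log2 scale against 0.257 for all genes tested. Mrps17 (0.0863), Mrpl49 (0.0877) and Mrps5 (0.0955) varied least, and Mrpl23 (0.69), Mrpl34 (0.271) and Mrpl41 (0.227) most.

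The first comparison set the large against the small subunit over the 4 groups. The mean log2 CPM of the large subunit genes was 4.67 ± 0.133 in females without and 4.73 ± 0.107 in females with training, and 4.51 ± 0.0598 and 4.61 ± 0.0757 in the corresponding males (SD, n = 5 each). For the small subunit genes it was 4.57 ± 0.131, 4.62 ± 0.099, 4.44 ± 0.0589 and 4.52 ± 0.0748 in the same order. Both subunits thus had the same order of groups, with trained females highest and non-trained males lowest, and the libraries of neighbouring groups overlapped. The large minus small difference within a library lay between 0.0591 and 0.129 log2 in all 20 libraries. Its group means were 0.0936 ± 0.0188, 0.103 ± 0.0192, 0.072 ± 0.0103 and 0.0963 ± 0.0209, lowest in non-trained males, whose libraries ran from 0.0591 to 0.0877 and overlapped those of each other group. The difference between the groups was not tested. With Mrps18a and Mrps30 moved to the large subunit and Mrps36 left out, the means were 0.145, 0.154, 0.121 and 0.147, again lowest in non-trained males.

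**Figure D2:**
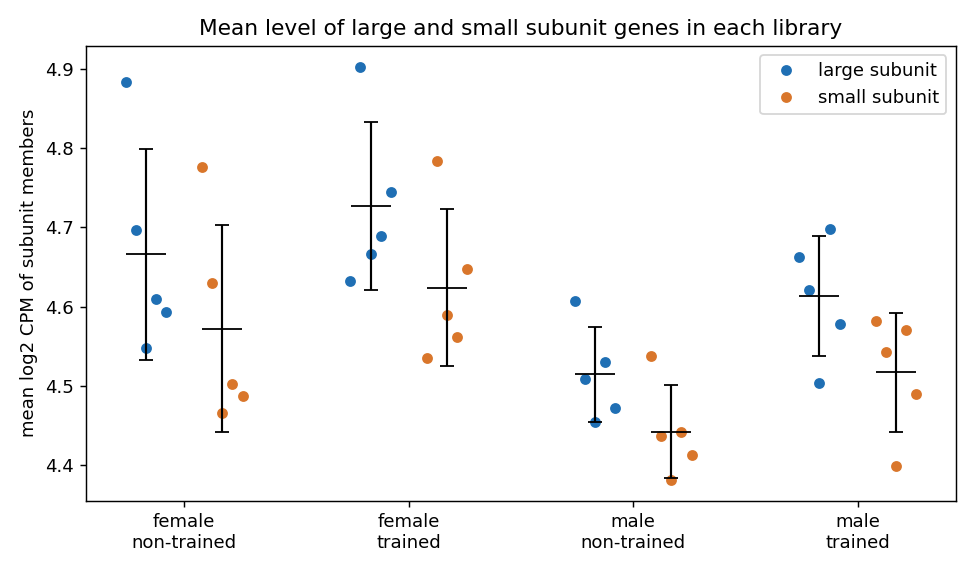
Mean log2 CPM of the 49 large (blue) and 29 small (orange) subunit genes in each library by group, with black bars for the group mean and SD (n = 5). Both subunits shift together from group to group, and the highest points are trained female library 2 and non-trained female library 1.

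In the mean sex difference over both training states, 21 of the 78 genes passed an adjusted p of 0.05 in edgeR's quasi-likelihood test, and all 21 were lower in males. That is 26.9% of the members, where 8.03% of all genes tested were called lower and 17.9% in either direction. By prefix, 16 of 49 large subunit genes (32.7%) and 5 of 29 small subunit genes (17.2%), among them Mrps36, were called lower. By structure, without Mrps36, the counts were 16 of 51 (31.4%) and 4 of 26 (15.4%). The difference between the subunits was not tested. The fitted value was below 0 for 72 of the 78, with a median log2 difference of -0.15 for the large and -0.13 for the small subunit, against 0.0032 over all genes. The count rested on scaling and on single libraries: it was 4 with library sizes without TMM, 5 without the 3 libraries that stand apart, and 12 to 26 with each library left out in turn. It was 12 without female non-trained 1, female trained 2, male non-trained 5 or male trained 3, and 13 without female non-trained 2 or female trained 5. Of the 21 genes, 11 were called in all 20 of those fits (Mrpl13, Mrpl18, Mrpl27, Mrpl28, Mrpl37, Mrpl38, Mrpl42, Mrpl49, Mrps21, Mrps28 and Mrps36). For none of the 78 did all male libraries lie below all female libraries, where this held for 0.516% of all genes.

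Mrpl27, a large subunit protein, had the largest called difference. Its CPM was 17.6, 16.2, 13.1, 13.6 and 14.6 in non-trained females and 12.7, 16.0, 13.7, 14.1 and 14.7 in trained females. In males it was 11.5, 11.4, 10.8, 13.1 and 10.7 without training and 12.7, 9.98, 11.2, 11.04 and 11.4 with it. Every non-trained male lay below every non-trained female, though the nearest were almost equal (13.05 CPM in a male and 13.06 CPM in a female). In the trained groups the highest male lay just above the lowest female. The log2 difference was -0.36 (SE 0.067, edgeR adjusted p = 0.00097), a fold of 0.779.

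Mrpl42, the most abundant of the family and also a large subunit protein, measured 158, 134, 116, 105 and 108 CPM in non-trained females and 138, 139, 144, 128 and 141 CPM in trained females. Males had 111, 109, 96.5, 96.7 and 90.8 CPM without training and 112, 110, 89.99, 122 and 106 CPM with it. The trained groups did not overlap, while 2 non-trained females lay among the non-trained males. The log2 difference was -0.33 (SE 0.071, edgeR adjusted p = 0.0033).

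Mrps21, the second most abundant and a small subunit protein, stood at 70.4, 60.9, 53.0, 45.3 and 44.9 CPM in females without training and at 53.6, 65.0, 61.5, 54.6 and 54.0 CPM in trained females. The male values were 41.7, 46.3, 44.6, 47.8 and 41.1 CPM without training and 49.7, 43.5, 44.1, 46.5 and 43.6 CPM with it. Again the trained groups were separate and the non-trained groups overlapped. The log2 difference was -0.33 (SE 0.072, edgeR adjusted p = 0.0034).

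Mrpl18 reached 75.8, 66.1, 55.1, 58.8 and 62.8 CPM in non-trained females and 53.2, 74.0, 54.0, 54.1 and 58.8 CPM in trained females. In males it was 52.8, 50.7, 46.2, 53.8 and 48.2 CPM without training and 56.7, 53.5, 46.4, 55.6 and 49.8 CPM with it. Here the non-trained groups were separate and the trained groups overlapped. The log2 difference was -0.25 (SE 0.067, edgeR adjusted p = 0.013). These 4 genes were called under each of the 8 other settings tried.

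**Figure D3:**
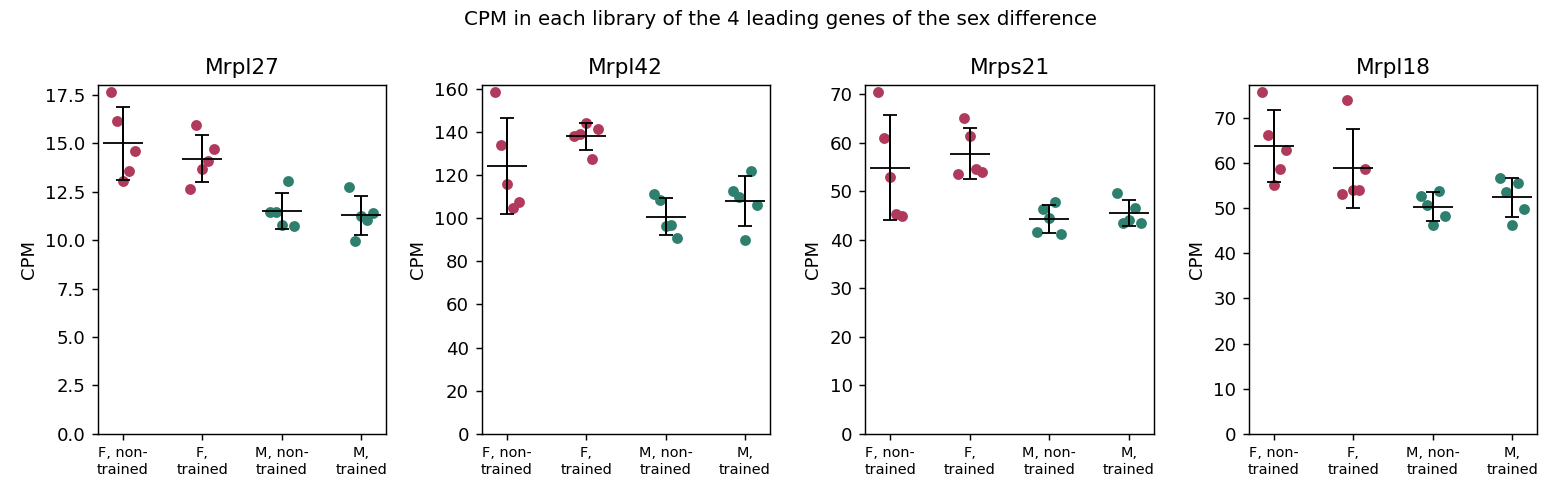
CPM of Mrpl27, Mrpl42, Mrps21 and Mrpl18 in each library by sex (F female, M male) and training, on axes that start at 0, with bars for mean and SD (n = 5). In each panel the lowest library is male and some female libraries lie among the males. The non-trained female groups of Mrpl42 and Mrps21 spread widest.

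Among the other called genes, Mrps36 had a log2 difference of -0.28 (SE 0.083, edgeR adjusted p = 0.025) and Mrps35, a small subunit protein, -0.25 (SE 0.083, adjusted p = 0.039). Both calls were lost with library sizes without TMM and without the 3 libraries. That of Mrps35 was also lost without the low-count filter and held in 7 of the 20 fits with 1 library left out. The remaining 15 lay between -0.23 and -0.16. Of the genes named for their role, Mrpl12, whose product also binds the mitochondrial RNA polymerase, had -0.21 (adjusted p = 0.12), and Mrpl58, a peptidyl-tRNA hydrolase built into the large subunit, -0.19 (adjusted p = 0.074). Mrps18a, Mrps18b and Mrps18c, related proteins that sit at different sites of the ribosome, had -0.03, -0.06 and -0.07, and Mrps30 had -0.15 (adjusted p = 0.11). With library sizes without TMM, Mrps18a and Mrps18b turned to just above 0.

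Taken separately, the training states use different libraries. In non-trained mice 2 of 78 genes were called, both lower in males, where 2.07% of all genes were called lower: Mrpl27 (-0.39, edgeR adjusted p = 0.02) and Mrpl18 (-0.34, adjusted p = 0.04). In trained mice 4 of 78 were called, all lower in males, where 2.22% of all genes were: Mrpl42 (-0.35, adjusted p = 0.043), Mrps21 (-0.35, adjusted p = 0.048), Mrpl27 (-0.33, adjusted p = 0.041) and Mrpl49 (-0.28, adjusted p = 0.019). The called shares were thus 2.56% of members in non-trained mice, close to the background, and 5.13% in trained mice. The counts moved by over 1.5 times in 12 and 15 of the 20 fits with 1 library left out, down to 0 in both. Groups did not overlap, with males lower, for 4 members in non-trained mice (Mrpl18, Mrpl27, Mrpl38 and Mrpl53, where 2.39% of all genes did so) and for 4 in trained mice (Mrpl30, Mrpl42, Mrps21 and Mrpl49, where 3.46% did). By direction, 63 of 78 genes (80.8%) were below 0 in both training states and none above 0 in both, where 34.5% of all genes were below 0 in both. Mrpl49, a large subunit protein, was the most even of the called genes: trained females had 22.04, 23.0, 24.2, 21.7 and 20.3 CPM and trained males 18.6, 18.5, 17.1, 19.2 and 18.4 CPM. Those groups did not overlap, while non-trained females (18.1 to 21.6 CPM) and non-trained males (17.5 to 20.5 CPM) did.

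**Figure D4:**
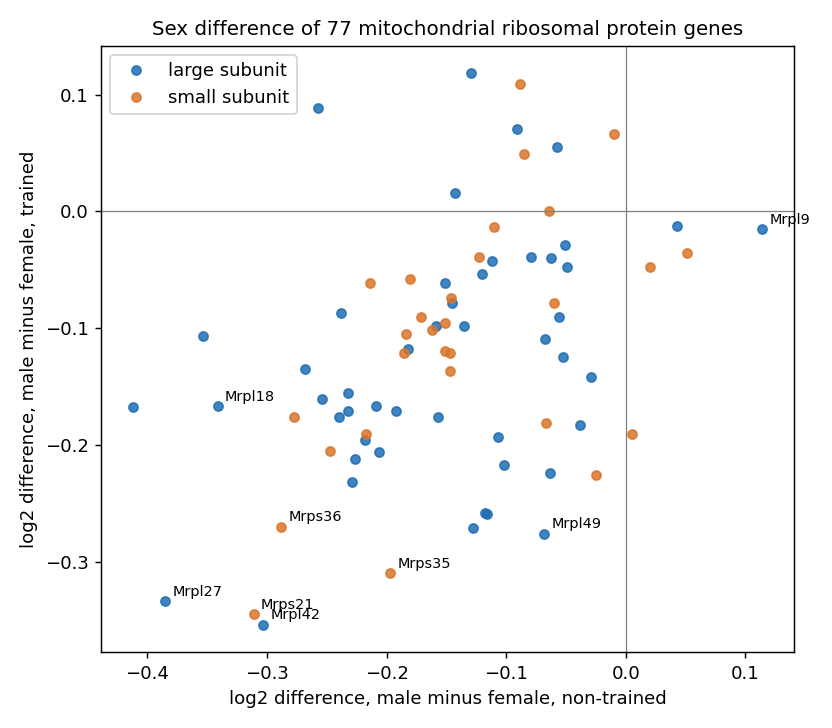
Log2 difference, male minus female, of 77 genes in non-trained (horizontal) and trained mice (vertical), blue for large and orange for small subunit. Most points lie below 0 on both axes, and Mrpl27, Mrpl42 and Mrps21 are at the lower left; Mrpl23 (-0.31 and 0.56), whose value is uncertain, is left out.

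Marker lists of other cell and fibre types also differed between the sexes in these libraries. In the mean over both training states, all 8 slow fibre markers, such as Myh7, the slow myosin heavy chain, were called lower in males, with a median log2 difference of -2.1. Their summed level ran from 496 to 6214 CPM in females and from 354.6 to 2015 CPM in males. All 10 macrophage markers, such as Adgre1, were called higher in males, with a median of 1.52 and summed levels of 42.59 to 137.7 CPM in females and 116.9 to 672.5 CPM in males. In non-trained mice all 6 erythroid markers were above 0 and 2 were called higher in males (median 2.0), with summed levels of 193.6 to 471.5 CPM in females and 243.5 to 3754 CPM in males. In trained mice all 9 Schwann cell markers were below 0 and 2 were called lower in males (median -1.17), with 57.5 to 259.1 CPM in females and 68.65 to 92.99 CPM in males. All 8 adipocyte markers were also below 0 there and 1 was called lower (median -0.49), with 592.1 to 691.8 CPM in females and 316 to 723 CPM in males. The erythroid, Schwann cell and adipocyte lists had medians of the opposite sign in the other training state, with no marker called. All 6 erythroid markers were below 0 in trained mice (median -0.38). In non-trained mice all 9 Schwann cell markers (median 0.52) and 6 of 8 adipocyte markers (median 0.45) were above 0. In the mean over both training states, 1 of 6 skeletal muscle markers, Acta1 (-0.20, edgeR adjusted p = 0.029), was called lower in males. So was 1 of 10 fast fibre markers, and both lists had a median of -0.05. The part of these lists in the sex difference of the ribosomal genes was not tested.

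Some of the other nuclear genes of mitochondrial translation were called lower in males, in differing shares of each list, where 8.03% of all genes were. Of 5 mitoribosomal proteins with other names, 4 were called lower, led by Chchd1, a small subunit protein (-0.32, edgeR adjusted p = 0.0016), with Dap3, Ptcd3 and Gadd45gip1. Of 25 genes for assembly and rRNA modification, 8 were called lower, among them Mterf3 (-0.28), which acts in large subunit assembly, Rbfa (-0.22), which matures the small subunit, and the rRNA methyltransferase gene Tfb1m (-0.33). The counts were 1 of 15 for translation factors (Gfm2, -0.18), 2 of 17 for aminoacyl-tRNA synthetases (Aars2, -0.26, and Sars2, -0.19) and 2 of 4 for mitochondrial transcription (Tfam, -0.20, and Polrmt, -0.15). None of 9 nuclear regulators was called. Of 13 mRNAs from mitochondrial DNA 1 was called, mt-Nd3 (-0.39), and neither rRNA was (mt-Rnr1 -0.13, adjusted p = 0.49, and mt-Rnr2 -0.14, adjusted p = 0.34). For comparison, 10 of 37 nuclear complex I genes (27.0%) and 8 of 78 cytosolic ribosomal protein genes (10.3%) were called lower, with medians of -0.18 and -0.16. Both medians, like those of the members, were below 0. The called shares of translation factors, aminoacyl-tRNA synthetases, mitochondrial DNA mRNAs and cytosolic ribosomal protein genes lay near that of all genes.

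Training gave no called member. In edgeR, 0 of 78 genes passed for training in females (smallest adjusted p = 0.34), in males (0.99) or in the mean of both sexes (0.28), and 0 for the training by sex interaction. All genes gave 0% called in each sex and for the interaction, and 0.0127% for the mean effect. At an unadjusted p under 0.05 the mean effect was higher for 11 members and lower for none, where 4.69% of all genes were higher, and DESeq2 called 1 member, Mrpl9, in that comparison. By direction, 69 of 78 members (88.5%) were above 0 in the mean effect, where 50.6% of all genes were. In both sexes separately 52 of 78 (66.7%) were above 0, where 28.4% of all genes were. The size was small, with a median of 0.07 for the large and 0.05 for the small subunit on the log2 scale. Some marker lists moved the same way in both sexes or in females only, with no marker of them called. All 8 slow fibre markers were above 0 in each sex, with a median of 0.15 in females and 0.95 in males. Their summed level ran from 1181 to 4942 CPM without and 496 to 6214 CPM with training in females, and from 354.6 to 1615 and 744 to 2015 CPM in males. Of 10 macrophage markers 8 were above 0 in each sex (median 0.18 in both), with 42.59 to 124.8 and 66.87 to 137.7 CPM in females and 145.7 to 341.3 and 116.9 to 672.5 CPM in males. In females, all 9 Schwann cell markers (median 1.09, 32.8 to 124.9 CPM without and 57.5 to 259.1 CPM with training) and 7 of 8 adipocyte markers (median 0.77, 394 to 570.5 and 592.1 to 691.8 CPM) were above 0. In males both lists went the other way. There 0 of 9 Schwann cell markers (median -0.66) and 2 of 8 adipocyte markers (median -0.12) were above 0. Of 6 erythroid markers, 5 were above 0 in females (median 0.31) and 0 in males (median -2.08). The part of these lists in the training values was not tested.

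Mrpl9, a large subunit protein, had the smallest p. Its CPM was 32.7, 32.8, 33.0, 31.8 and 30.6 in non-trained and 37.6, 43.3, 36.7, 37.7 and 38.2 in trained females, groups that did not overlap. In males it was 36.1, 31.7, 33.9, 32.7 and 39.7 without training and 35.8, 38.1, 37.7, 37.3 and 42.6 with it, and these overlapped. The mean log2 effect was 0.20 (SE 0.048, edgeR adjusted p = 0.28). Mrpl38, of the large subunit's central protuberance, had 0.23 (SE 0.060, adjusted p = 0.30), and Mrps27, a small subunit protein with RNA-binding repeats, 0.21 (SE 0.067, adjusted p = 0.38). Groups did not overlap for 1 member in females (Mrpl9, where 0.637% of all genes were higher without overlap) and for 2 in males (Mrpl4 and Mrps27, where 0.535% were). In males the nearest non-trained and trained libraries were close, at 22.59 and 22.61 CPM for Mrps27 and 26.33 and 26.65 CPM for Mrpl4. At the other end of the mean effect, 9 of 78 members were below 0, the lowest at -0.05. Among them, Mrpl27 (-0.05), Mrps22 (-0.05) and Mrpl48 (-0.03) had the smallest p.

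**Figure D5:**
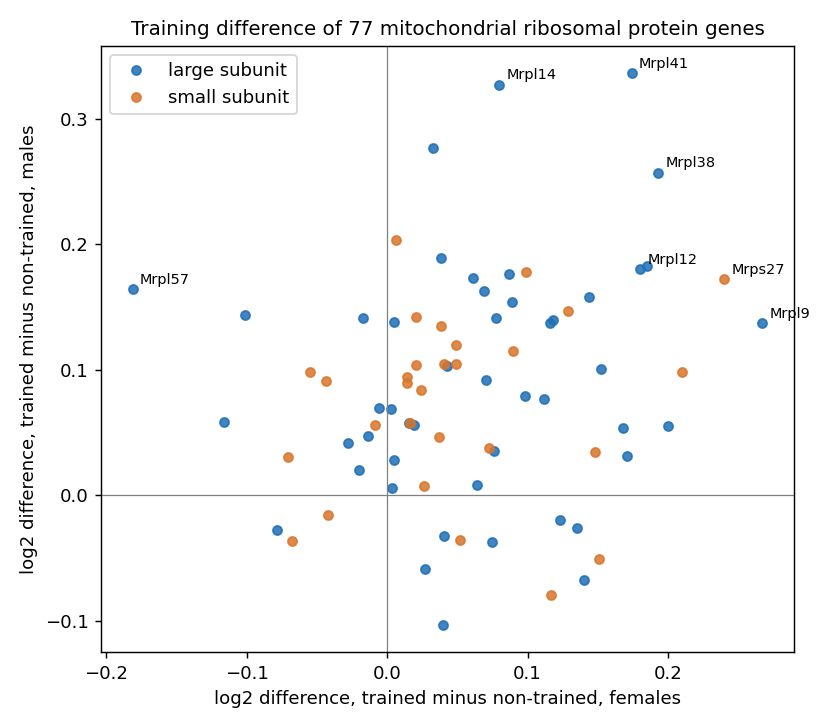
Log2 difference, trained minus non-trained, of 77 genes in females (horizontal) and males (vertical), blue for large and orange for small subunit. Most points lie above 0 on both axes with none past the threshold; Mrpl23 (-0.40 and 0.48) is left out.

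In the interaction, the smallest p in each direction was that of Mrpl57 (male minus female effect 0.35, SE 0.15, edgeR adjusted p = 0.999) and Mrpl49 (-0.21, SE 0.095, adjusted p = 0.999). Both mitochondrial rRNAs had positive mean training values that did not pass, 0.38 for mt-Rnr1 (SE 0.12, adjusted p = 0.38) and 0.33 for mt-Rnr2 (SE 0.097, adjusted p = 0.35). Poly(A) selection limits what these values say of rRNA levels. In the other lists no gene was called for training; those with the smallest p were Yars2, a mitochondrial tyrosyl-tRNA synthetase (0.26, adjusted p = 0.30), and Taco1, a translational activator (0.23, adjusted p = 0.32). All 37 complex I genes were above 0 in the mean effect, with a median of 0.16 and none called.

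The starts of these genes were read from RefSeq (GRCm38.p6), which listed 75 promoters for 69 of the 78 genes, each 250 bases before to 50 bases after the start. Motifs of 3 factors known for nuclear genes of mitochondria were searched on both strands. CCGGAAG (ETS family, which includes the factor GABP) was in 34.7% of member promoters and in 16.0% of those of tested protein-coding genes. The NRF1 motif (GCGC, then NN, then GCGC) was in 18.7% and 12.1%, and AAGATGGCG (YY1) in 10.7% and 2.75%. A match is a description of letters and not of binding. The 4 windows of 120 bases before the start are shown, for the 3 genes with the largest called sex difference and for Mrpl9, which had the smallest training p; motif letters are in capitals. They are chr11:94653671-94653790 (plus strand) for Mrpl27, chr10:95501950-95502069 (minus strand) for Mrpl42, chr3:95871515-95871634 (minus strand) for Mrps21 and chr3:94443216-94443335 (plus strand) for Mrpl9.
Mrpl27: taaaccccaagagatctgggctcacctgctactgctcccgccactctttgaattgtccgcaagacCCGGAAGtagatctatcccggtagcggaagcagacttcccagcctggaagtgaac
Mrpl42: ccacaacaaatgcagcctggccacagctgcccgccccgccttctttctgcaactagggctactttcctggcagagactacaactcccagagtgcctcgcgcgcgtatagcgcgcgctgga
Mrps21: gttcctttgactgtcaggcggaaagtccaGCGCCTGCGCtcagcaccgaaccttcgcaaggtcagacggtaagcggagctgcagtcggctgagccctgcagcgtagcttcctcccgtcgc
Mrpl9: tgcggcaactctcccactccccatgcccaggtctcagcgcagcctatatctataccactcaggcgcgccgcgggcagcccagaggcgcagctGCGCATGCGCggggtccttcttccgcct

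Mrpl27 held an ETS match starting 55 bases before the start, Mrps21 an NRF1 match at 91 bases and Mrpl9 an NRF1 match at 28 bases, while none of the 3 motifs was in the window of Mrpl42. The whole promoters, which reach beyond these windows, also held an ETS match in Mrps21 and a YY1 match in Mrpl42, both after the start. Many members lie head to head with another gene. For 18 of 78 (23.1%), a protein-coding gene on the opposite strand started at most 1000 bases upstream, where 9.52% of tested protein-coding genes had one. Pairs that overlap at their starts, such as Mrps11 and Mrpl46, were not counted. Examples are Mrpl49 with Fau, 59 bases apart, and Mrps12 with Sars2, the mitochondrial seryl-tRNA synthetase gene, 172 bases apart.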

How the data were processed

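Each library came with a gene table that the authors deposited, holding RSEM expected counts and TPM, per the file headers. Builds and tools named in the submitters' processing notes are GRCm38, STAR 2.5.1 and RSEM 1.3.1, with Trim Galore, cutadapt, limma and edgeR. Of 53465 identifiers, 53360 matched GENCODE M21. RSEM divides reads among near-identical genes by estimation, so copies are uncertain. The members, gene lists and tests were chosen with earlier results of these data known.

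Expected counts were rounded and filtered with filterByExpr (minimum count 10). After TMM scaling, edgeR 4.0.16 fitted all 4 groups together by robust quasi-likelihood (16 residual degrees of freedom). The Benjamini-Hochberg adjustment ran over all 15709 genes, with a threshold of 0.05. SE is the log2 difference over the square root of F, and log2 CPM used a prior count of 2. TPM served for levels between genes only. Depth was 22043145 to 38483572 counts per library. On simulated counts for the mean sex difference (15445 genes), 14 of 100 genes changed 1.2-fold and 51 of 100 changed 1.5-fold were recovered, with 5 false calls. The changed genes were drawn at random from all genes, every gene varied independently, and fewer genes changed than were called in the data. The members moved together and spread less than other genes, so these rates do not describe them. Near-identical copies were sought with BLAST+ 2.17.0 (at least 95% identity over 200 bases and 50% of the transcript).

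The rule for naming took up to 6 called members per direction in each comparison, or the 3 with the smallest p where none passed. Others were taken by level, spread or role. Some genes that the rule took, such as Mrpl14 for training in males, are not described in the text. Further genes, such as Mrpl4, were named after their values were seen. Alternatives were DESeq2 1.42.0, limma-voom 3.58.1, RLE scaling, library size without TMM, a stricter filter, no filter, a fit without the 20 highest genes and those of mitochondrial DNA, only the 2 groups compared, subunits by structure, a prior count of 0.5 and each library left out. Leaving out 3 libraries together was chosen after seeing the data.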

Additional observations from a re-analysis of the deposited data

Results flagged for a closer look

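In 172 sets of 5 libraries tested, 12 held a library far from the other 4 by Dixon's criterion, and chance gives about 1 in 20. Female trained library 2 was high for Mrpl18 (74.0 CPM, others 53.2 to 58.8), Mrpl53 (40.8, others 31.1 to 33.4), Mrpl9 (43.3, others 36.7 to 38.2) and Mrps23 (68.0, others 51.5 to 55.5). Female non-trained library 1 was high for Mrpl57 (20.7 CPM, others 13.8 to 14.8), Mrps18a (42.3, others 30.4 to 33.5) and Mrps30 (31.0, others 23.4 to 25.04). Female non-trained library 3 was high for Mrpl23 (4.76 CPM, others 1.19 to 1.86) and low for Mrps9 (17.5, others 23.2 to 25.04). Male trained library 3 was high for Mrpl23 (5.57 CPM, others 1.51 to 2.10) and low for Mrps23 (47.7, others 55.8 to 56.8). Male trained library 1 was high for Mrps27 (26.0 CPM, others 22.6 to 23.5).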

How the results depend on the processing

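No paired analysis was possible because the labels number every library differently across the groups. Members called in the mean sex difference numbered 4 with library size without TMM, 13 without a filter, 5 without the 3 libraries that stand apart, and 12 to 26 with 1 library left out. In non-trained mice they numbered 0 with library size, 7 in DESeq2, 0 with only the 2 groups, 1 without the 3 libraries and 0 to 7 with 1 left out. In trained mice they numbered 1 with library size, 0 without a filter and 0 to 5 with 1 left out. DESeq2 called 1 member for the mean training effect. Over all genes, DESeq2 called 33, 5, 30 and 1 for training in females, in males, the mean and the interaction, and 1465 and 1401 for sex in non-trained and trained mice. The mean training count was 1 without a filter, 0 in limma-voom, 0 without the 3 libraries and 0 to 7 with 1 left out, and training in each sex gave 0 to 1. Sex in non-trained mice gave 448 with only the 2 groups and 435 to 1038 with 1 left out, and sex in trained mice 558 without a filter and 494 to 1239. Large minus small subunit values by structure were 0.145, 0.154, 0.121 and 0.147.

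Signs turned for values near 0 or uncertain. Without the 3 libraries, Mrpl53 had 0.0176 for training in females, Mrpl27 0.00543 and Mrpl48 0.0349 for the mean training effect, and Mrpl23 -0.135 and Mrps18a 0.0255 for the mean sex difference. With library size without TMM, Mrps18a had 0.0308 and Mrps18b 0.0012 for the mean sex difference. With 1 library left out, Mrpl53 ran from -0.175 to 0.0155 for training in females. For the mean training effect Mrpl58 ran from -0.00323 to 0.0793, Mrps18a from -0.00136 to 0.0704 and Mrps18c from -0.0143 to 0.0543. For sex in non-trained mice Mrps12 ran from -0.00376 to 0.0891 and Mrpl10 from -0.00852 to 0.0927. For the mean sex difference Mrps16 ran from -0.00623 to 0.0762, Mrps18a from -0.0549 to 0.0136 and Mrpl23 from -0.153 (without male trained 3) to 0.364 (without female non-trained 3). The cause was not tested.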

Other observations

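The counts of Mrpl23 varied from library to library unlike those of the other members, with a correlation of -0.42 to their mean. Mrpl23 alone had 1.19 to 4.76 CPM in females without and 0.976 to 2.13 in females with training, and 0.894 to 3.39 and 1.51 to 5.57 in the corresponding males. Its sum with the pseudogene Mrpl23-ps1 was 38.5 ± 8.08, 38.6 ± 2.82, 32.4 ± 2.32 and 32.9 ± 3.05 CPM (SD, n = 5) in the same order. The summed value was lower in the male groups, as most members were, and was not tested. The length RSEM reported for Mrpl23 ran from 663 to 2644 bases between libraries, while that of Mrpl49 was 1722 in each.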
